A study of Homo sapiens with 12 samples.

Results

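Erythroid differentiation was examined in control HUDEP-2 cells, as the 3 libraries taken after differentiation against the 3 libraries taken before it. These 6 libraries, chosen by their labels alone, are 6 of the 12 in the series. HUDEP-2 is a human erythroid progenitor line made from cord blood, kept in cycle by papillomavirus oncogenes that doxycycline switches on. The differentiated control cells (SCR_post, labelled HUDEP2 sgSCR, genotype WT, late basophilic erythroblast) had been moved to IMDM with erythropoietin at 3 IU/mL, doxycycline at 1 ug/mL, insulin at 10 ug/mL, heparin at 3 IU/mL, holo-transferrin at 0.5 mg/mL and 5% human AB serum. The undifferentiated control cells (SCR_pre, same guide and genotype label, early basophilic erythroblast) were in StemSpan SFEM II with stem cell factor at 50 ng/mL, erythropoietin at 3 IU/mL, dexamethasone and doxycycline at 1 ug/mL. Both groups therefore carried a scrambled guide RNA and were exposed to erythropoietin and doxycycline, and stage and medium changed together, so their shares in any difference below cannot be told apart. The other 6 libraries are MBD2-/- cells after (KO_post) and before (KO_pre) the same differentiation, in the same media. The labels give 3 days of differentiation in one field and 5 days in another, and they state neither whether replicates were separate cultures nor whether the control line is a clone, so p-values measure the spread between these libraries only.

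During erythropoiesis, early precursors that depend on stem cell factor and its receptor KIT give way to basophilic erythroblasts that depend on erythropoietin, take up iron through the transferrin receptor and fill with hemoglobin. GATA1, KLF1 and TAL1 drive this program by switching on the genes of the membrane skeleton, the blood group antigens, heme synthesis and the globins, while GATA1 takes the place of GATA2 at shared sites. Later precursors condense their chromatin, leave the cell cycle, clear their mitochondria and expel the nucleus.

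The 3 SCR_post libraries held 10433944, 13705360 and 9450884 counts, and the 3 SCR_pre libraries held 10438416, 14047498 and 9833846. The targeted gene of the series, MBD2, measured 61.4, 59.1 and 58.2 counts per 1000000 (CPM) in SCR_post libraries, against 78.7, 77.7 and 75.3 CPM in SCR_pre libraries. The MBD2-/- libraries held 14.6 to 16.8 CPM after and 19.8 to 24.5 CPM before differentiation, all below every control library. The first principal component of the 6 control libraries held 70.5% of the variance and separated the groups, and replicates of a group correlated at 0.9862 to 0.9923 across genes. All 16 markers of the erythroid lineage were detected. Small noncoding RNA genes of the annotation type misc_RNA took 10.8%, 11% and 11% of counts in SCR_post libraries, against 7.21%, 7.37% and 7.47% in SCR_pre libraries. Ribosomal RNA genes took 0.562%, 0.775% and 1.05% of counts in SCR_post libraries, against 1.08%, 0.456% and 0.394% in SCR_pre libraries. Replicate 1 of SCR_pre stood apart from the other SCR_pre libraries in that share and in the globin and mitochondrial shares, which are given beside those genes.

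The fit called 3697 genes higher (21.5% of 17175 tested) and 3832 lower (22.3%) in SCR_post than in SCR_pre cells (edgeR quasi-likelihood test, Benjamini-Hochberg adjusted p under 0.05), so 43.8% of all tested genes changed. Most changes were small: the median log2 fold change was 0.66 among the genes that rose and -0.55 among those that fell. A change of at least 2-fold was found for 1027 higher genes (5.98%) and 836 lower genes (4.87%), and one of at least 4-fold for 214 and 185. The median over all tested genes was 0.01 and over protein-coding genes -0.02. The groups did not overlap for 54.1% of tested genes. With 3 libraries a group an exact permutation test reaches p = 0.1 at best, and the p-values of single genes are therefore those of the fit.

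**Figure D1:**
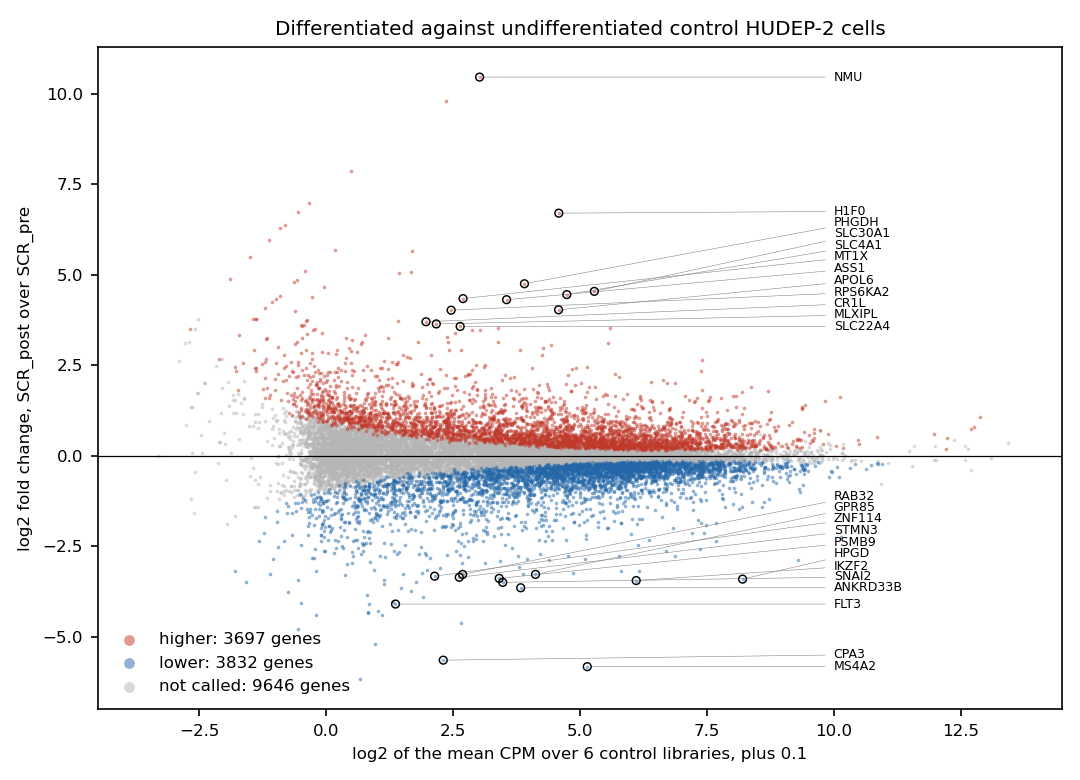
Log2 fold change of SCR_post over SCR_pre (vertical axis) against log2 of the mean CPM over the 6 control libraries plus 0.1 (horizontal axis), 1 point a gene, for 17175 genes; red points were called higher (3697), blue points lower (3832) and grey points neither. The 12 named genes a direction with the largest changes are ringed, from NMU and H1F0 at the top to CPA3 and MS4A2 at the bottom.

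The 12 named genes that rose most were led by NMU, H1F0, PHGDH, SLC30A1 and SLC4A1. NMU, which encodes the neuropeptide neuromedin U (ENSG00000109255.10, hg38, chromosome 4, 55595229 to 55636698, minus strand), stood at 16.8, 16.5 and 14.9 CPM in SCR_post libraries, against 0 in each SCR_pre library. With 548 counts against 0, it was 193-fold higher, taking a floor of 3 counts over the SCR_pre group. The lower end of its 95% interval from counting error was 157-fold. H1F0, the linker histone H1.0 of cells that leave the cycle (chromosome 22, 37805093 to 37807436, plus strand), measured 41.8, 53.7 and 46.5 CPM in SCR_post libraries, against 0.657, 0.406 and 0.286 CPM in SCR_pre libraries. Every SCR_post value of H1F0 lay far above every SCR_pre value, a log2 fold change of 6.70 ± 0.19 (SE, adjusted p = 1.42e-13). SLC4A1, the band 3 anion exchanger of the red cell membrane (chromosome 17, 44248385 to 44268141, minus strand), stood at 54.2, 51.4 and 47.5 CPM in SCR_post libraries, against 1.5, 2.64 and 2.76 CPM in SCR_pre libraries. The SLC4A1 groups stood well apart, a log2 fold change of 4.45 ± 0.19 (adjusted p = 1.50e-11). The serine synthesis enzyme PHGDH, the zinc exporter SLC30A1, the metallothionein MT1X and the arginine synthesis enzyme ASS1 rose by 4.31 to 4.75 on the log2 scale. They were followed by APOL6 of the apolipoprotein L family (4.03), the kinase RPS6KA2 (4.02), the complement receptor relative CR1L (3.70), the glucose-responsive transcription factor MLXIPL (3.64) and the ergothioneine transporter SLC22A4 (3.57). A lack of overlap between the groups was a condition for naming these 12 genes, so it is no result about them.

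The 12 named genes that fell most were led by MS4A2, CPA3 and FLT3. In both directions the level set for naming was a mean log2 CPM of at least 2 over all 12 libraries, MBD2-/- libraries included. DNAH8 missed that level, though it fell further than FLT3, and is given under other observations. MS4A2, the beta chain of the IgE receptor (chromosome 11, 60088261 to 60098466, plus strand), measured 1.31, 1.16 and 1.16 CPM in SCR_post libraries, against 80, 63.2 and 64.9 CPM in SCR_pre libraries. MS4A2 had almost gone from SCR_post libraries, a log2 fold change of -5.83 ± 0.23 (adjusted p = 9.36e-12). CPA3, a mast cell carboxypeptidase, measured 0, 0.218 and 0.316 CPM in SCR_post libraries, against 11.2, 8.13 and 9.24 CPM in SCR_pre libraries (log2 fold change -5.65 ± 0.37, adjusted p = 2.83e-09). HPGD, the enzyme that inactivates prostaglandins (chromosome 4, 174490177 to 174523154, minus strand), stood at 53.5, 45.7 and 53.4 CPM in SCR_post libraries, against 576, 513 and 529 CPM in SCR_pre libraries. The highest SCR_post library of HPGD lay below every SCR_pre library (log2 fold change -3.41 ± 0.09, adjusted p = 1.29e-13). The receptor tyrosine kinase FLT3 fell by 4.10 on the log2 scale, and the transcription factors SNAI2 and IKZF2 fell by 3.50 and 3.45. ANKRD33B, PSMB9, STMN3, ZNF114, GPR85 and RAB32 fell too, with log2 fold changes of -3.65 to -3.28.

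Most genes of the red cell membrane skeleton rose as the cells differentiated. Of the 17 tested members of the membrane skeleton list, 11 rose and 2 fell (64.7% and 11.8%, beside 21.5% and 22.3% of all tested genes), with a median log2 fold change of 0.45 beside 0.01 over all tested genes. These background shares apply to each list count that follows. TPM1, a tropomyosin that lies along actin filaments, measured 93.6, 95 and 94.6 CPM in SCR_post libraries, against 35.7, 40.6 and 39.1 CPM in SCR_pre libraries. The TPM1 values varied little within a group and were 2.45-fold higher in SCR_post cells (log2 fold change 1.29 ± 0.08, adjusted p = 8.93e-10), with 2834 of the 12492 exon bases of TPM1 shared with other annotated genes. Its partner at the ends of actin filaments, the tropomodulin TMOD1, rose by 1.20, with 45% of the exon bases of TMOD1 shared. Other skeleton genes moved less than these: SPTB (beta-spectrin) rose by 0.30, ANK1 (ankyrin) by 0.32 and EPB42 (protein 4.2) by 0.45. The 2 that fell were ACTB, the general cytoplasmic actin (-0.82), and STOM, stomatin (-0.61).

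Blood group carriers rose in 16 of 27 tested cases and fell in 4 (median 0.31). AQP1, the water channel that carries the Colton group (chromosome 7, 30911855 to 30925516, plus strand), stood at 4.41, 5.6 and 4.32 CPM in SCR_post libraries, against 0.75, 0.609 and 0.762 CPM in SCR_pre libraries. The AQP1 groups did not overlap, and the log2 fold change was 2.77 ± 0.26 (adjusted p = 2.19e-07), with 910 of its 3274 exon bases shared with other annotated genes. The acetylcholinesterase ACHE of the Yt group rose by 1.70, the H antigen fucosyltransferase FUT1 by 1.64 and the Kell protein KEL by 0.76. The 4 that fell were the aquaglyceroporin AQP3 (-1.08), CD47 (-0.76), CD44 (-0.61) and the Rh-associated glycoprotein RHAG (-0.53).

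Transporters and channels of the red cell rose in 16 of 23 cases and fell in 5 (median 0.55). KCNN4, the calcium-gated potassium channel of red cell dehydration, measured 83.1, 87.7 and 81.4 CPM in SCR_post libraries, against 10.1, 9.48 and 9.33 CPM in SCR_pre libraries. The KCNN4 groups stood apart with little spread in either, a log2 fold change of 3.12 ± 0.10 (adjusted p = 4.87e-13). The calcium pump ATP2B4 rose by 1.21, the nucleotide exporter ABCC5 by 0.97 and the glucose carrier SLC2A1 by 0.87. The lactate carrier SLC16A1 fell by 1.19 and the mitochondrial pore VDAC1 by 1.11, and SLC2A3, the glucose carrier of many nonerythroid cells, fell by 0.98.

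**Figure D2:**
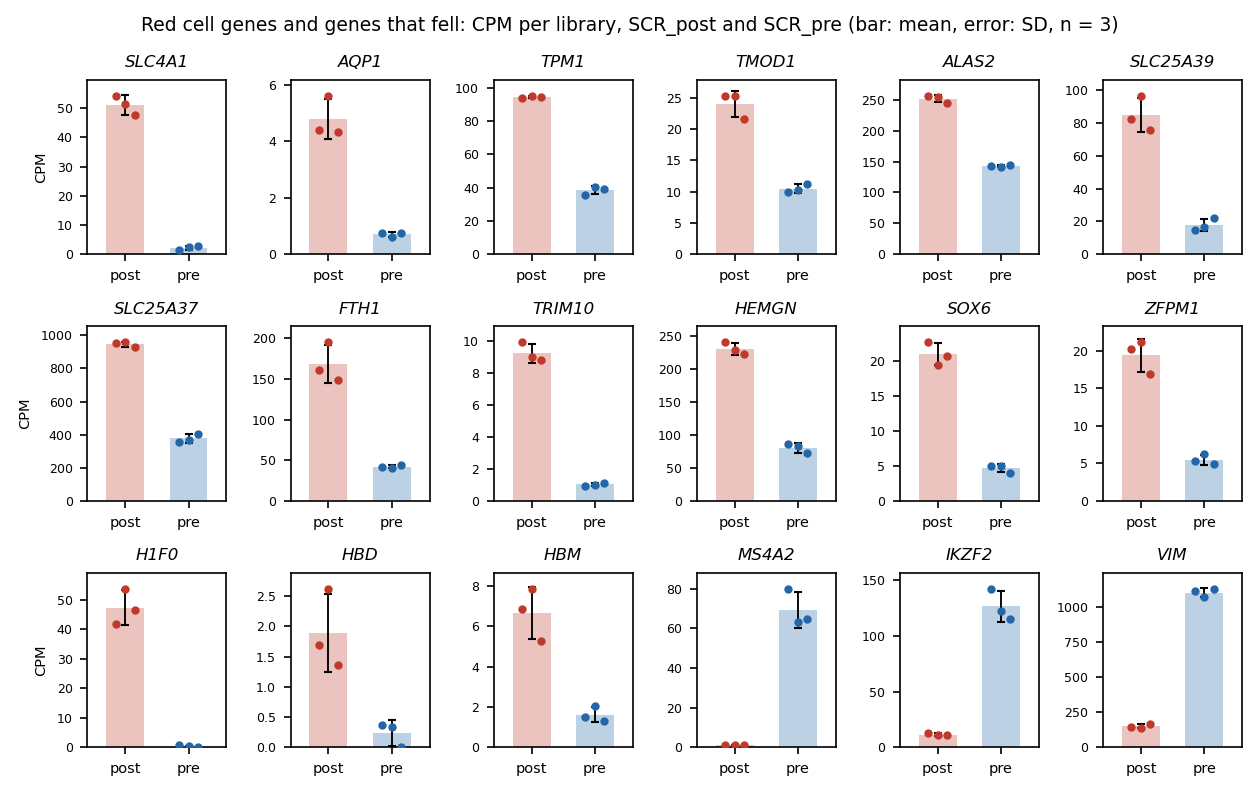
CPM of 18 genes in each control library (points), with the mean (bar) and SD (error bar) of 3 libraries, SCR_post in red and SCR_pre in blue; each panel has its own axis from 0. SLC4A1, AQP1, TPM1 and H1F0 are among the genes higher in every SCR_post library, and MS4A2, IKZF2 and VIM are lower in every SCR_post library.

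In the heme synthesis list 10 of 19 tested members rose and 4 fell (median 0.19); the share that rose, 52.6%, was above the 21.5% of all tested genes, and the share that fell, 21.1%, was near the 22.3% of all. ALAS2, the erythroid enzyme that starts heme synthesis, measured 256, 254 and 245 CPM in SCR_post libraries, against 143, 141 and 144 CPM in SCR_pre libraries. The ALAS2 libraries of a group lay close together and the groups were well separated, by a log2 fold change of 0.82 ± 0.07 (adjusted p = 4.48e-08). SLC25A39, the mitochondrial glutathione carrier, had the largest rise of the list: it measured 82, 96.3 and 75.7 CPM in SCR_post libraries, against 15, 16.9 and 21.9 CPM in SCR_pre libraries (log2 fold change 2.25 ± 0.17, adjusted p = 1.82e-08). The glycine transporter SLC6A9 rose by 1.61, and FECH (ferrochelatase, the last enzyme) by 0.60. TSPO2, a translocator protein of erythroid cells, went the other way, with 2.53, 3.2 and 2.74 CPM in SCR_post libraries, against 5.53, 6.5 and 8.57 CPM in SCR_pre libraries (log2 fold change -1.26 ± 0.21).

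Among iron genes, 11 of 24 tested members rose and 2 fell (median 0.19). ERFE, erythroferrone, the hormone by which erythroblasts lower hepcidin, measured 54.4, 58.7 and 56.9 CPM in SCR_post libraries, against 13.5, 14.4 and 18.1 CPM in SCR_pre libraries (log2 fold change 1.89 ± 0.14, adjusted p = 1.55e-08). The mitochondrial iron importer SLC25A37 rose by 1.33. Both ferritin chains rose, FTH1 (heavy chain) by 2.00, with 62.4% of its exon bases shared with other genes, and FTL (light chain) by 0.71. Of the heme oxygenases, which break heme down, HMOX1 rose by 1.97 and HMOX2 fell by 0.69. The transferrin receptor TFRC measured 6702, 6588 and 7161 CPM in SCR_post libraries, against 6324, 5787 and 5881 CPM in SCR_pre libraries. Its groups did not overlap, but its log2 fold change of 0.18 ± 0.09 missed the threshold (adjusted p = 0.0925); in a fit of the 6 control libraries alone it passed (adjusted p = 0.0369). ACO1, the iron-sensing aconitase, fell by 0.84.

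Globin transcripts were removed by the kit before sequencing, so what is left of them shows how removal went in each library as well as expression. The globin genes together took 0.152%, 0.0834% and 0.311% of counts in SCR_post libraries, against 0.615%, 0.201% and 0.125% in SCR_pre libraries (difference of means -0.132 percentage points, exact two-sided permutation p = 0.6). Replicate 1 of SCR_pre was highest in globin share, and without it the difference was 0.019. HBA2 measured 1167, 642 and 2468 CPM in SCR_post libraries, against 4898, 1552 and 956 CPM in SCR_pre libraries. The groups overlapped, and HBA2 (log2 fold change -0.79 ± 0.66, adjusted p = 0.357), HBA1 (-0.67 ± 0.66, 0.446) and HBB (-0.62 ± 0.65, 0.475) were not called. Without replicate 1 of SCR_pre, the log2 fold changes were 0.18, 0.32 and 0.36. With no filter on low counts all 3 were called lower (adjusted p of 1.21e-27 for HBA2, 5.63e-16 for HBA1 and 1.41e-14 for HBB), with SE of 0.07 to 0.08 in place of 0.65 to 0.66. Reads of the near-identical pair HBA1 and HBA2 can be split between them.

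The 9 tested globins included 3 that rose, all of them minor globins at low levels in both groups. HBD, delta-globin, measured 1.69, 2.62 and 1.37 CPM in SCR_post libraries, against 0.375, 0.339 and 0 CPM in SCR_pre libraries (log2 fold change 2.91 ± 0.53, adjusted p = 3.01e-04). HBM, mu-globin, with 44.8% of exon bases shared, measured 6.84, 7.85 and 5.26 CPM in SCR_post libraries, against 1.5, 2.03 and 1.33 CPM in SCR_pre libraries. HBQ1, theta-globin, measured 4.22, 6.98 and 5.05 CPM in SCR_post libraries, against 2.44, 1.56 and 2.67 CPM in SCR_pre libraries, so all 3 of these genes were higher in every SCR_post library. The fetal gamma-globin HBG2 measured 1.41, 1.09 and 1.89 CPM in SCR_post libraries, against 1.03, 0.745 and 1.43 CPM in SCR_pre libraries, with overlap (adjusted p = 0.696). HBG1 (adjusted p = 0.0747) and embryonic HBZ (0.335) were not called, and HBE1 had 2 counts over SCR_post and 0 over SCR_pre libraries. Of the exon bases of HBG2, HBG1 and HBZ, 53%, 71.8% and 27.2% were shared with other genes, so their counts are a limited measure of expression.

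Erythroid transcription factors rose in 24 of 34 tested cases and fell in 1 (median 0.43). SOX6, a repressor that supports definitive erythropoiesis, measured 22.7, 19.5 and 20.8 CPM in SCR_post libraries, against 5.07, 4.94 and 4 CPM in SCR_pre libraries. Every SCR_post library of SOX6 held several times the SCR_pre level, a log2 fold change of 2.16 ± 0.12 (adjusted p = 6.74e-10). ZFPM1 (FOG1, the cofactor of GATA1) rose by 1.82, the corepressor CBFA2T3 by 1.34 and HES6 by 1.33. The master factors moved less. GATA1 measured 73, 78 and 76 CPM in SCR_post libraries, against 40.8, 53.3 and 64.6 CPM in SCR_pre libraries, a log2 fold change of 0.52 ± 0.14 (adjusted p = 0.00645). TAL1 rose by 0.46 and KLF1 by 0.43, and the fetal globin repressors BCL11A and ZBTB7A rose by 0.55 and 0.66. The 1 member that fell was the hypoxia factor EPAS1 (-0.91).

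Late maturation genes rose in 23 of 41 tested cases and fell in 6 (median 0.39). TRIM10, a RING finger protein of terminal erythroid cells, measured 9.94, 9.01 and 8.84 CPM in SCR_post libraries, against 0.938, 1.02 and 1.14 CPM in SCR_pre libraries. The TRIM10 groups stood far apart (log2 fold change 3.15 ± 0.19, adjusted p = 8.83e-10). The oxysterol-binding OSBP2 rose by 2.22, hemogen HEMGN by 1.52 and the alpha-globin chaperone AHSP by 0.91. BNIP3L, the receptor by which reticulocytes clear mitochondria, measured 441, 414 and 472 CPM in SCR_post libraries, against 890, 829 and 785 CPM in SCR_pre libraries, and so was lower in every SCR_post library (log2 fold change -0.92 ± 0.08, adjusted p = 5.94e-08). PLEK2, a pleckstrin of erythroblast actin, fell by 1.53.

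Promoter sequences are shown for TRIM10, a red cell gene that rose, and for the mast cell gene that fell most, because GATA factors act in both lineages. A GATA site was searched as AGATAA or TGATAA on both strands, from 250 bases before to 50 bases after the RefSeq start site, which can differ from the annotation used for counting. The sequences are from RefSeq on GRCh38.p14, 5′ to 3′ on the strand of the gene, with the match in capitals. TRIM10 lies at chr6:30161162-30161461 (minus strand) and MS4A2 at chr11:60088414-60088713 (plus strand).
TRIM10: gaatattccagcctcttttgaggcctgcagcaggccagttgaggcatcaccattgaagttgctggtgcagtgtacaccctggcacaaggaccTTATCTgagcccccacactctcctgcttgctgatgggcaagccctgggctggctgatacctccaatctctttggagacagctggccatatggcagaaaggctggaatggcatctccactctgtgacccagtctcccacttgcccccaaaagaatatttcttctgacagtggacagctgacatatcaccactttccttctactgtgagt
MS4A2: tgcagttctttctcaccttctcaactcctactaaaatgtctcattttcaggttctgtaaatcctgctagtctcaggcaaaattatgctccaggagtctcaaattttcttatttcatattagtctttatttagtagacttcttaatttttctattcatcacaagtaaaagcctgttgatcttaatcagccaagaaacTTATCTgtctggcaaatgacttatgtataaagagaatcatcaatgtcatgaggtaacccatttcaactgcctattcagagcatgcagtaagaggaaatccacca
Over the heme, membrane skeleton, blood group, transporter and late maturation lists together, 20 of the 100 promoters found held a match (20%), beside 8.05% of the 9601 promoters of tested protein-coding genes. These lists hold genes picked as red cell genes, and they include members that fell or were not called. That excess can follow from how the lists were made and is no result about the course. The share was 8.6% among all protein-coding genes that rose and 7.9% among those that fell, so the letters did not separate the directions. The KLF1-type motif CCACACCC or CCGCACCC was found in 4% of the red cell promoters and 6.05% of all. Other forms of that motif were not searched, so these shares cover only part of the KLF1-type sites.

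Factors of stem and progenitor cells mostly fell: of 19 tested members 12 fell and 3 rose (median -0.69). IKZF2, the Ikaros family factor Helios, measured 12.8, 11 and 10.8 CPM in SCR_post libraries, against 142, 122 and 115 CPM in SCR_pre libraries. Every SCR_post library of IKZF2 lay far below every SCR_pre library, a log2 fold change of -3.45 ± 0.13 (adjusted p = 3.66e-12). FLT3 measured 0.188, 0.363 and 0.21 CPM in SCR_post libraries, against 4.6, 4.94 and 4.57 CPM in SCR_pre libraries. SOX4 fell by 1.64, the granulocyte factor CEBPA by 1.66 and GATA2, the early GATA factor, by 0.76. RUNX1 rose by 0.87. MYB, the progenitor proto-oncogene, measured 449, 429 and 447 CPM in SCR_post libraries, against 396, 384 and 394 CPM in SCR_pre libraries, and its call (log2 fold change 0.17 ± 0.06, adjusted p = 0.0279) was lost in 7 of the 18 alternative fits. MYC was not called (adjusted p = 0.318).

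Genes of motility and adhesion fell in 14 of 26 tested cases and rose in 9 (median -0.40). VIM, the intermediate filament vimentin that erythroblasts lose (chromosome 10, 17228259 to 17237593, plus strand, 25.4% of exon bases shared), measured 148, 138 and 165 CPM in SCR_post libraries, against 1109, 1066 and 1127 CPM in SCR_pre libraries. Each SCR_post library of VIM lay far below each SCR_pre library, a log2 fold change of -2.87 ± 0.10 (adjusted p = 1.58e-12). Galectin-1 LGALS1 fell by 2.33, the calcium-binding S100A4 and S100A10 by 1.41 and 1.37. Not all members went this way: the beta-tubulin TUBB2A rose by 2.04 and CD36, a receptor of early erythroblasts, by 1.50.

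Antigen presentation genes fell in 9 of 17 tested cases (52.9%, beside 22.3% of all tested genes) and rose in 5 (29.4%, beside 21.5%), with a median of -0.39. PSMB9, an inducible subunit of the immunoproteasome, measured 1.41, 2.03 and 2 CPM in SCR_post libraries, against 21.2, 18.8 and 17.7 CPM in SCR_pre libraries (log2 fold change -3.39 ± 0.18, adjusted p = 1.96e-10). Its partner PSMB8 fell by 1.18, the MHC light chain B2M by 1.16 and HLA-E by 0.92, while the peptide trimming enzyme ERAP1 rose by 0.53. The interferon list was mixed, with 6 higher and 9 lower of 23 tested (median -0.17): RSAD2 fell by 1.45 and CMPK2 by 1.30, and IRF1 rose by 1.34.

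Markers of other cell types were summed by list. Summed over the mast cell and basophil list, the level was 837 to 860 CPM in SCR_post libraries, against 1190 to 1230 CPM in SCR_pre libraries, and 1 member rose and 8 fell of 12 tested. Most of that sum in every library came from KIT, the receptor for the stem cell factor of the expansion medium. KIT measured 589, 578 and 591 CPM in SCR_post libraries, against 713, 737 and 772 CPM in SCR_pre libraries (log2 fold change -0.34 ± 0.06, adjusted p = 1.81e-04). The neutrophil and monocyte list summed to 29.5 to 36.2 CPM in SCR_post libraries, against 63.2 to 71.1 CPM in SCR_pre libraries, with S100A12 at 0 counts. Of its 9 tested members 4 fell, among them the granulocyte factor CEBPE (-4.40) and lysozyme LYZ (-2.71, 34% of exon bases shared), and 1 rose. The megakaryocyte list summed to 36.9 to 39.7 CPM in SCR_post libraries, against 53 to 56.8 CPM in SCR_pre libraries, with GP1BB and PPBP at 0 counts, and had 2 higher and 3 lower of 6 tested. The lymphoid list summed to 4.87 to 4.95 CPM in SCR_post libraries, against 2.98 to 4.28 CPM in SCR_pre libraries, with CD3E and CD2 at 0 counts. The stromal list summed to 223 to 238 CPM against 247 to 252 CPM, with LUM and PECAM1 at 0 counts. Nearly all of the stromal sum came from EPCAM (mean 183 CPM in SCR_post and 177 in SCR_pre libraries) and CDH1 (37.6 and 66). Both are epithelial adhesion genes, and 16 of the 20 listed members averaged under 1 CPM. In bulk RNA, fewer cells of a type and less RNA per cell cannot be told apart, and the part of other cells in the genes that fell was not tested.

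**Figure D3:**
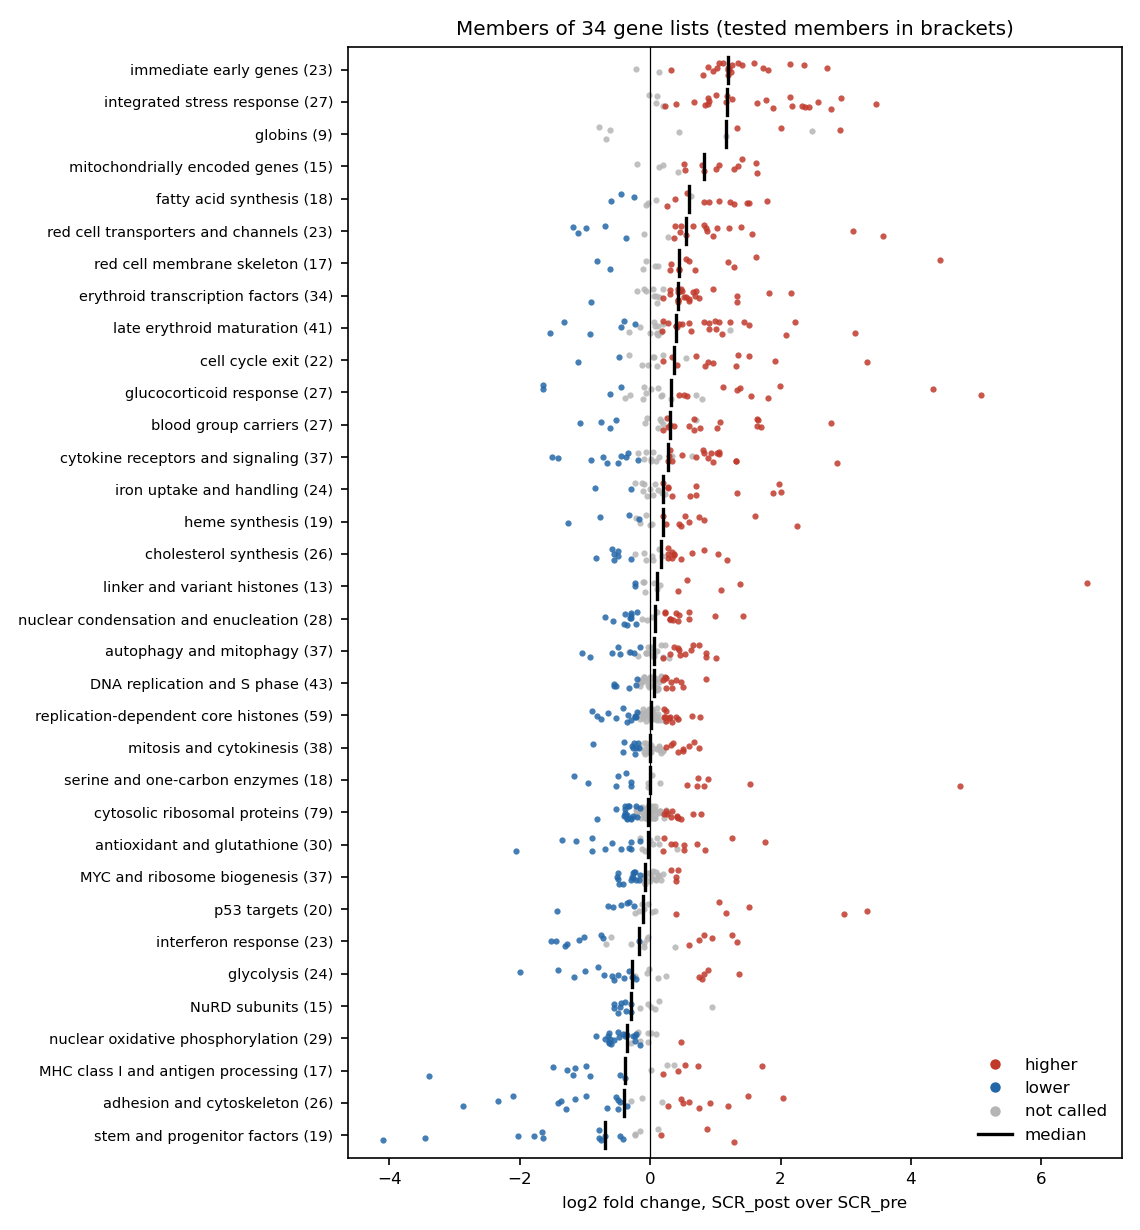
Log2 fold change of SCR_post over SCR_pre (horizontal axis) for each tested member (point) of 34 gene lists (rows), red where called higher, blue where called lower and grey where neither; the black mark is the median of the list. Medians run from 1.20 for immediate early genes and 1.18 for the integrated stress response to -0.69 for stem and progenitor factors.

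Genes of the integrated stress response rose together: 23 of 27 tested members rose and 0 fell, with a median of 1.18, beside 21.5% of all tested genes called higher. This response lowers general translation through phosphorylated eIF2 alpha and raises the factor ATF4, which switches on amino acid uptake and synthesis; in erythroid cells it is known to answer heme shortage. ATF4 itself rose by 0.91. ATF3 (chromosome 1, 212565334 to 212620777, plus strand), a stress-induced factor, measured 14.3, 15 and 15.3 CPM in SCR_post libraries, against 1.5, 1.42 and 1.05 CPM in SCR_pre libraries. Both groups of ATF3 were tight and far apart, a log2 fold change of 3.47 ± 0.17 (adjusted p = 1.32e-10). TRIB3, the pseudokinase that feeds back on ATF4, measured 31.2, 34.7 and 33.8 CPM in SCR_post libraries, against 5.53, 4.13 and 5.14 CPM in SCR_pre libraries (log2 fold change 2.77 ± 0.18, adjusted p = 3.62e-09). Stanniocalcin STC2 rose by 2.93, the glutathione-degrading CHAC1 by 2.44, the cystine transporter SLC7A11 by 2.33 and asparagine synthetase ASNS by 1.64. The death-promoting factor DDIT3 (CHOP) measured 27.6, 31.5 and 31 CPM in SCR_post libraries, against 14.8, 13 and 9.62 CPM in SCR_pre libraries (log2 fold change 1.26 ± 0.15, adjusted p = 2.96e-06).

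The promoters of ASNS and CHAC1 are shown because both are textbook targets of ATF4. The motif searched was TGATGNAA on both strands, with N any base, in the same window and from the same source; the match is in capitals. ASNS lies at chr7:97872359-97872658 (minus strand) and CHAC1 at chr15:40953221-40953520 (plus strand).
ASNS: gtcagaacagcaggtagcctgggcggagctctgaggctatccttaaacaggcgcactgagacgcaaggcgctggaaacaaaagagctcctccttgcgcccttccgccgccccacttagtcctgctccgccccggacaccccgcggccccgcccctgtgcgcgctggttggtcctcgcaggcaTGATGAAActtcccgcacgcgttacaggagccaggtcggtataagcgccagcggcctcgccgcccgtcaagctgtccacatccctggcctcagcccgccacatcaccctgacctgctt
CHAC1: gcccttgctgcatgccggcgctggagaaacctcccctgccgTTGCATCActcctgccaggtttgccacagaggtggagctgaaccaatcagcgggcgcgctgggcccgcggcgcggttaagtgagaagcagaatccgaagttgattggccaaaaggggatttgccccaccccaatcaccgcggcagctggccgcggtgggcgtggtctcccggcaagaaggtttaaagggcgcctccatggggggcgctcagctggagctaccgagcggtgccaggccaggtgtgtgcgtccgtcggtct
Of the 20 promoters found for the 27 tested members, 6 held a match (30%), beside 1.65% of all 9601 promoters. The list holds textbook targets of ATF4, so that excess follows from how the list was made and is no result of these data. The share was 2.32% among all protein-coding genes that rose and 1.51% among those that fell.

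The list of serine and one-carbon enzymes split into 7 higher and 7 lower of 18 tested (median -0.00). PHGDH, which starts serine synthesis (chromosome 1, 119659798 to 119744215, plus strand), measured 25, 29.6 and 31.7 CPM in SCR_post libraries, against 0.657, 1.15 and 1.33 CPM in SCR_pre libraries. The PHGDH groups stood far apart, a log2 fold change of 4.75 ± 0.21 (adjusted p = 2.46e-11). The next enzymes of serine synthesis, PSAT1 and PSPH, rose by 1.53 and 0.56, and the mitochondrial folate enzyme MTHFD1L by 0.72. TYMS, the enzyme that makes thymidylate for DNA synthesis, fell by 0.29. ASS1, the arginine synthesis enzyme, measured 21.6, 23.5 and 21.6 CPM in SCR_post libraries, against 0.938, 1.35 and 0.952 CPM in SCR_pre libraries (log2 fold change 4.31 ± 0.22, adjusted p = 1.98e-10). Among the enzymes that charge tRNA in the cytosol, a family looked at after its members' values were seen, 13 of 18 tested rose and 3 fell (median 0.39), led by WARS at 1.89.

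A zinc exporter, SLC30A1, and a metallothionein, MT1X, were among the 12 named genes that rose most. SLC30A1 (chromosome 1, 211571568 to 211578742, minus strand), the exporter ZnT1 of the plasma membrane, measured 78.7, 66.7 and 78.2 CPM in SCR_post libraries, against 3.28, 2.71 and 3.71 CPM in SCR_pre libraries. The SLC30A1 groups were more than an order of magnitude apart (log2 fold change 4.54 ± 0.17, adjusted p = 3.10e-12). MT1X (chromosome 16, 56682424 to 56684196, plus strand), a metallothionein, a small protein that binds zinc and copper, measured 11.4, 11.6 and 13.5 CPM in SCR_post libraries, against 0.75, 0.406 and 0.666 CPM in SCR_pre libraries (log2 fold change 4.34 ± 0.27, adjusted p = 1.77e-09). MT2A measured 5.44, 6.9 and 5.68 CPM in SCR_post libraries, against 0.281, 0.0677 and 0.19 CPM in SCR_pre libraries. The metallothionein family was then examined after these values were seen: 5 of its 11 genes passed the filter on low counts. Genes with so few counts in SCR_pre libraries pass that filter only through libraries where they are high, so their direction is a description. MT1G measured 5.53, 7.85 and 5.05 CPM in SCR_post libraries, against 0.0938, 0.0677 and 0.19 CPM in SCR_pre libraries. MT1H held 92 counts in SCR_post against 0 in SCR_pre libraries, 32.5-fold higher at a floor of 3 counts over the group. MT1E held 32 against 0, 11.3-fold higher at that floor. The lower ends of their 95% intervals from counting error were 25.9-fold and 8.67-fold. Reads of these similar genes can be split between them. SLC39A10, which brings zinc into the cell, measured 89.6, 85.1 and 91.3 CPM in SCR_post libraries, against 326, 331 and 315 CPM in SCR_pre libraries, a log2 fold change of -1.87 ± 0.06 (adjusted p = 1.02e-12). SLC39A14 fell by 1.22 and SLC39A1 by 0.85, and over both zinc transporter families 4 of 17 tested genes rose and 8 fell (median -0.17).

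The promoters of MT1X, MT2A and SLC30A1 are shown because metal response elements, the sites of the zinc-sensing factor MTF1, are known in promoters of metallothioneins and of SLC30A1. The core was searched as TGCACNC or TGCGCNC on both strands, in the same window and from the same source, and matches are in capitals. MT1X lies at chr16:56682220-56682519 (plus strand), MT2A at chr16:56608334-56608633 (plus strand) and SLC30A1 at chr1:211579112-211579411 (minus strand).
MT1X: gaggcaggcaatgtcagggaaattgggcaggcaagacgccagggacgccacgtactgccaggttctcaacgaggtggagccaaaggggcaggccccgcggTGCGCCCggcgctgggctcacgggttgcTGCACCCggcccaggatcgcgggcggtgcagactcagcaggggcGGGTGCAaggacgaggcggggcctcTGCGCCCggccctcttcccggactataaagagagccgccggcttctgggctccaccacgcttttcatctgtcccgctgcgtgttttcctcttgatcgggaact
MT2A: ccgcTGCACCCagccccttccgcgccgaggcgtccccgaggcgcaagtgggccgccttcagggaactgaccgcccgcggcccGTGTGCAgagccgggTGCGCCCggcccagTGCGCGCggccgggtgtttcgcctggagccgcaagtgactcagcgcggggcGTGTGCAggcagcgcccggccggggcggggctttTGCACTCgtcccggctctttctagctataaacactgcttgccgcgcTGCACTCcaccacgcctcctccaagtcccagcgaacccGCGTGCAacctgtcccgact
SLC30A1: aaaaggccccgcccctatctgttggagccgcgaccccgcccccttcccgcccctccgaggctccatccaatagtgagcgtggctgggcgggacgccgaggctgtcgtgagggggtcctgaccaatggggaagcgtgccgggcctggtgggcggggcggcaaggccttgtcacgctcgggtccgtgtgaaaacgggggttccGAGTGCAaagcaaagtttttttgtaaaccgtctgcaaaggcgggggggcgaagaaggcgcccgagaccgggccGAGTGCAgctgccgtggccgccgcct
MT1X held 4 matches, MT2A 8 and SLC30A1 2. The core is short, and 39.1% of all 9601 promoters held at least 1 match.

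**Figure D4:**
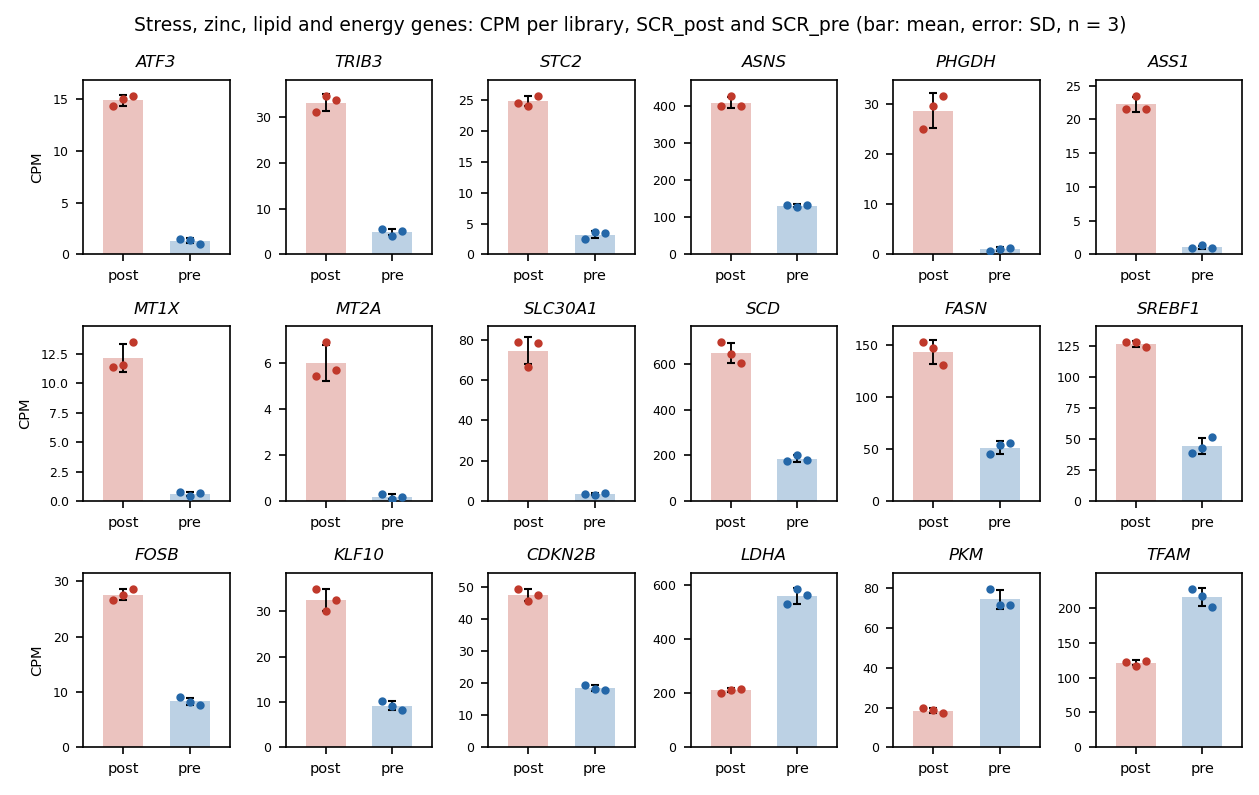
CPM of 18 genes in each control library (points), with the mean (bar) and SD (error bar) of 3 libraries, SCR_post in red and SCR_pre in blue; each panel has its own axis from 0. ATF3, PHGDH, ASS1, MT1X, MT2A and SLC30A1 are near 0 in every SCR_pre library, and LDHA, PKM and TFAM are lower in every SCR_post library.

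Genes of lipid synthesis rose in part. In the fatty acid list 11 of 18 tested members rose and 3 fell (median 0.59). SCD, the desaturase that makes oleate, measured 696, 644 and 606 CPM in SCR_post libraries, against 176, 202 and 180 CPM in SCR_pre libraries, without overlap (log2 fold change 1.80 ± 0.09, adjusted p = 1.94e-10). The lipogenic factor SREBF1 rose by 1.52, fatty acid synthase FASN by 1.48 and acetyl-CoA carboxylase ACACA by 1.22. In the cholesterol list 12 of 26 tested members rose and 7 fell (median 0.16). These are 46.2%, beside 21.5% of all tested genes, and 26.9%, beside 22.3%. EBP, a sterol isomerase, was among those that fell, by 0.50.

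Glycolysis genes fell in 14 of 24 tested cases (58.3%, beside 22.3% of all tested genes) and rose in 5 (20.8%, near the 21.5% of all), with a median of -0.28. LDHA, which makes lactate, measured 202, 213 and 216 CPM in SCR_post libraries, against 527, 584 and 560 CPM in SCR_pre libraries, with a wide gap between the groups (log2 fold change -1.41 ± 0.07, adjusted p = 1.45e-10). PKM, the pyruvate kinase of most cells, fell by 2.00, while PKLR, the isozyme of mature red cells, was not called. ENO1 fell by 1.00 and PGK1 by 0.71. The pentose phosphate enzyme PGD rose by 1.25, within an antioxidant list that had 10 members higher and 12 lower of 30 tested (median -0.04). In that list the peroxiredoxins PRDX1 and PRDX3 fell by 1.14 and 0.58, and PRDX2, the peroxiredoxin of red cells, rose by 0.72.

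Nuclear and mitochondrial genes of respiration moved in opposite directions. Of 29 tested nuclear genes, 20 fell and 1 rose (median -0.35), beside 22.3% of all tested genes called lower. TFAM, the factor that packs and transcribes mitochondrial DNA, measured 122, 117 and 124 CPM in SCR_post libraries, against 227, 217 and 201 CPM in SCR_pre libraries, well below them in each case (log2 fold change -0.83 ± 0.07, adjusted p = 1.07e-07). SDHB fell by 0.69 and the ATP synthase subunit ATP5F1A by 0.60. Of 15 genes encoded in mitochondrial DNA, 11 rose and 0 fell (median 0.82). MT-ND2, a complex I subunit, measured 274, 350 and 237 CPM in SCR_post libraries, against 97.5, 97.2 and 83.4 CPM in SCR_pre libraries (log2 fold change 1.63 ± 0.12, adjusted p = 8.06e-09). The cytochrome oxidase subunit MT-CO1 was not called (0.14 ± 0.10, adjusted p = 0.241), so the mitochondrial messages did not change by 1 common factor. Mitochondrially encoded genes took 1.59%, 1.88% and 1.92% of counts in SCR_post libraries, against 1.76%, 1.12% and 1.06% in SCR_pre libraries. Replicate 1 of SCR_pre lay within the SCR_post values in that share, and without it 12 of the 15 genes were called higher.

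Receptors and signaling genes rose more often than they fell. Of 37 tested cytokine receptor and signaling genes, 17 rose and 10 fell (median 0.28). These are 45.9%, beside 21.5% of all tested genes, and 27%, beside 22.3%. The erythropoietin receptor EPOR measured 40.4, 42.8 and 38.1 CPM in SCR_post libraries, against 17.8, 21.9 and 22.2 CPM in SCR_pre libraries, without overlap (log2 fold change 0.97 ± 0.15, adjusted p = 7.39e-05). The kinase JAK2 rose by 0.88, the insulin receptor substrate IRS2 by 1.32 and the feedback inhibitor SOCS3 by 2.86. The phosphatase PTPN6, which ends erythropoietin signals, fell by 1.51 and SOCS2 by 0.72. Dexamethasone was in the expansion medium only, and of 27 tested glucocorticoid response genes 11 rose and 4 fell in SCR_post cells (median 0.32). FKBP5, a classical glucocorticoid target, measured 668, 628 and 631 CPM in SCR_post libraries, against 522, 585 and 610 CPM in SCR_pre libraries, and was not called (log2 fold change 0.17 ± 0.07, adjusted p = 0.0819, and 0.0471 without SCR_pre replicate 3). TSC22D3 (GILZ), another, rose by 0.56, and the receptor NR3C1 was not called (0.12 ± 0.06, adjusted p = 0.133). The members that rose include CEBPB (1.99), SGK1 (1.55) and the metallothioneins MT1X and MT2A, which other signals also raise.

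Immediate early genes, which serum and growth factors switch on without new protein, rose in 21 of 23 tested cases and fell in 0 (median 1.20). KLF10 measured 34.9, 30.1 and 32.4 CPM in SCR_post libraries, against 10.2, 9.21 and 8.19 CPM in SCR_pre libraries (log2 fold change 1.81 ± 0.10, adjusted p = 3.22e-10). FOSB measured 26.6, 27.5 and 28.6 CPM in SCR_post libraries, against 9.01, 8.26 and 7.62 CPM in SCR_pre libraries, so both genes were higher in every SCR_post library by a wide gap. IER5 rose by 1.59 and JUND by 1.35, and EGR1, the standard example of the class, by 1.20. The part of serum, of collection of the cells and of stage in these changes cannot be told apart.

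Cell cycle genes gave no common direction. In the DNA replication list 10 of 43 tested members rose and 6 fell (median 0.06), and in the mitosis list 9 of 38 rose and 10 fell (median 0.00). The shares that rose, 23.3% and 23.7%, were near the 21.5% of all tested genes, and the shares that fell were 14% and 26.3%, beside 22.3%. Without SCR_post replicate 1 or 2 or SCR_pre replicate 1 or 2, the mitosis genes that fell numbered as few as 5. MKI67, the proliferation antigen, measured 637, 612 and 579 CPM in SCR_post libraries, against 702, 729 and 739 CPM in SCR_pre libraries, a small fall (log2 fold change -0.25 ± 0.07, adjusted p = 0.00553). In the cell cycle exit list 12 of 22 tested members rose and 2 fell (median 0.37). The 12 include CCND2, cyclin D2, which drives the cycle forward and rose by 0.89. CDKN2B, the inhibitor p15, measured 49.4, 45.6 and 47.5 CPM in SCR_post libraries, against 19.6, 18.2 and 17.9 CPM in SCR_pre libraries (log2 fold change 1.35 ± 0.08, adjusted p = 4.72e-10). CDKN1A (p21) rose by 3.33 at low counts, GADD45B by 1.91, and CDKN1B (p27) was not called (-0.13 ± 0.07, adjusted p = 0.139). The p53 target list, which shares CDKN1A and BTG2 with it, had 6 members higher and 7 lower of 20 tested (median -0.11); GDF15, a target also of the stress response, rose by 2.98, and the death receptor FAS fell by 1.43.

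Of 59 tested replication-dependent core histones, 12 rose and 13 fell (median 0.01), 20.3% and 22%, which are near the 21.5% and 22.3% of all tested genes. Without SCR_pre replicate 2 the core histones called higher were 7. Of 13 linker and variant histones, 5 rose and 2 fell (median 0.11): after H1F0, the linker histone H1FX measured 19.6, 25.1 and 17.7 CPM in SCR_post libraries, against 7.6, 8.94 and 7.33 CPM in SCR_pre libraries (log2 fold change 1.38 ± 0.18, adjusted p = 1.12e-05). H2AFX rose by 1.09, and the replicative linker histones HIST1H1B and HIST1H1E each fell by 0.24. These were the 2 called lower, and that count was 0 without SCR_post replicate 1 and 1 without SCR_post replicate 3 or SCR_pre replicate 1 or 2. Genes of nuclear condensation and enucleation went both ways, with 12 higher and 11 lower of 28 tested (median 0.07); the histone methyltransferase KMT5A rose by 0.99 and the formin DIAPH2 fell by 0.69. Of 15 NuRD subunits, the remodeling complex that MBD2 joins, 9 fell and 0 rose (median -0.29), each by at most 0.56, and 5 alternative fits called 1 subunit higher.

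Ribosome genes moved little. Of 79 tested cytosolic ribosomal protein genes, 11 rose and 18 fell (median -0.03), 13.9% beside 21.5% of all tested genes and 22.8% beside 22.3%, and together they took 3.87%, 4.26% and 3.71% of counts in SCR_post libraries, against 4.22%, 4.32% and 4.04% in SCR_pre libraries. Of 37 ribosome biogenesis and MYC target genes, 4 rose and 14 fell (median -0.08), with the nucleolar NPM1 falling by 0.51. Without SCR_post replicate 2 the ribosomal proteins called higher were 4, and without SCR_post replicate 1 or 2 or SCR_pre replicate 2 the biogenesis genes called lower were as few as 8. Autophagy genes gave 13 higher and 8 lower of 37 tested (median 0.06), or 35.1% beside 21.5% of all tested genes and 21.6% beside 22.3%, the 8 being as few as 5 without SCR_post replicate 2 or 3 or SCR_pre replicate 1. Among them WIPI1 rose by 1.01 and the lysosomal LAMP1 fell by 1.04.

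Among long noncoding RNAs, lincRNA and antisense genes rose more often than they fell, while 4 of 44 sense-overlapping genes rose and 6 fell. Of 580 tested lincRNAs 28.6% rose and 10.3% fell (median 0.32), and of 963 antisense genes 22.3% rose and 6.44% fell (median 0.26), beside 23.6% and 28.2% of 11652 protein-coding genes. The antisense share that rose was thus near that of protein-coding genes, and the difference lay in how few fell. Weakly expressed genes of all types also rose more often than they fell: among the 1718 genes of lowest mean level 261 rose and 123 fell, with a median of 0.33 for the protein-coding genes among them. The part of expression level in the counts of noncoding genes was not tested. Antisense genes could not be separated from their partners, since the counting named no strand. LINC01215 (chromosome 3, 108125821 to 108138610, plus strand) measured 5.44, 6.03 and 5.26 CPM in SCR_post libraries, against 51.5, 53.8 and 52.6 CPM in SCR_pre libraries. LINC01133 (chromosome 1, 159961218 to 159979061, plus strand) measured 4.5, 5.6 and 4.32 CPM in SCR_post libraries, against 0.188, 0.474 and 0.381 CPM in SCR_pre libraries. Their log2 fold changes were -3.23 ± 0.12 (adjusted p = 5.10e-12) and 3.71 ± 0.36 (adjusted p = 3.41e-07). A lack of overlap was a condition for naming them. AL353753.1, AC008771.1 and DENND5B-AS1 also fell, and AL109615.3, AC069281.1 and PAQR9-AS1 rose. MALAT1, an abundant nuclear RNA chosen after its values were seen, measured 9809, 10487 and 10295 CPM in SCR_post libraries, against 4486, 4962 and 5172 CPM in SCR_pre libraries.

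The control course was set against the same course in MBD2-/- cells, which shares no library with it. Of the 3697 genes that rose in control cells, 79% were called higher in the MBD2-/- course too and 47 were called lower; of the 3832 that fell, 81.1% were called lower there and 71 higher. In the MBD2-/- course 4807 genes rose (28%) and 4756 fell (27.7%), of which 60.8% and 65.3% were called the same way in control cells. The difference between the courses was itself tested, and its sign does not tell which course changed by more in size. Control change minus MBD2-/- change was called positive for 1148 genes (6.68%) and negative for 1079 (6.28%). With library sizes in place of scaling factors this split was 2146 against 644, while the median difference over all genes moved to 0.15, against 0.01.

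Some genes moved in opposite directions in the courses. TRIM67, a RING finger protein of neurons, measured 11.5, 11.7 and 9.68 CPM in SCR_post libraries, against 3.94, 3.72 and 3.43 CPM in SCR_pre libraries, and 2.34, 1.61 and 1.97 CPM in KO_post libraries, against 8.52, 8.35 and 7.42 CPM in KO_pre libraries. TRIM67 rose in control cells and fell in MBD2-/- cells, a difference between the changes of 3.61 ± 0.24 on the log2 scale (adjusted p = 1.32e-07). CFAP161, a cilia protein, measured 28.6, 25.9 and 29.6 CPM in SCR_post libraries, against 5.53, 5.21 and 5.05 CPM in SCR_pre libraries, while KO_post and KO_pre libraries held 1.89 to 2.62 CPM (difference 2.58 ± 0.24, adjusted p = 3.46e-06). On the other side, ARG1, an arginase, measured 3.56, 2.33 and 2.95 CPM in SCR_post libraries, against 1.5, 1.9 and 1.81 CPM in SCR_pre libraries, and 52, 51 and 51.6 CPM in KO_post libraries, against 5.7, 5.03 and 5.88 CPM in KO_pre libraries. ARG1 therefore rose in both courses, and by less in control cells (difference -2.49 ± 0.24, adjusted p = 6.92e-06). Its rise in control cells (log2 fold change 0.73 ± 0.20, adjusted p = 0.00688) was not called without SCR_post replicate 1 (adjusted p = 0.0796). The focal adhesion gene TNS1 (difference -3.04 ± 0.27) and TCP11L2 (-2.67 ± 0.16) likewise ended far higher in KO_post than in SCR_post libraries.

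**Figure D5:**
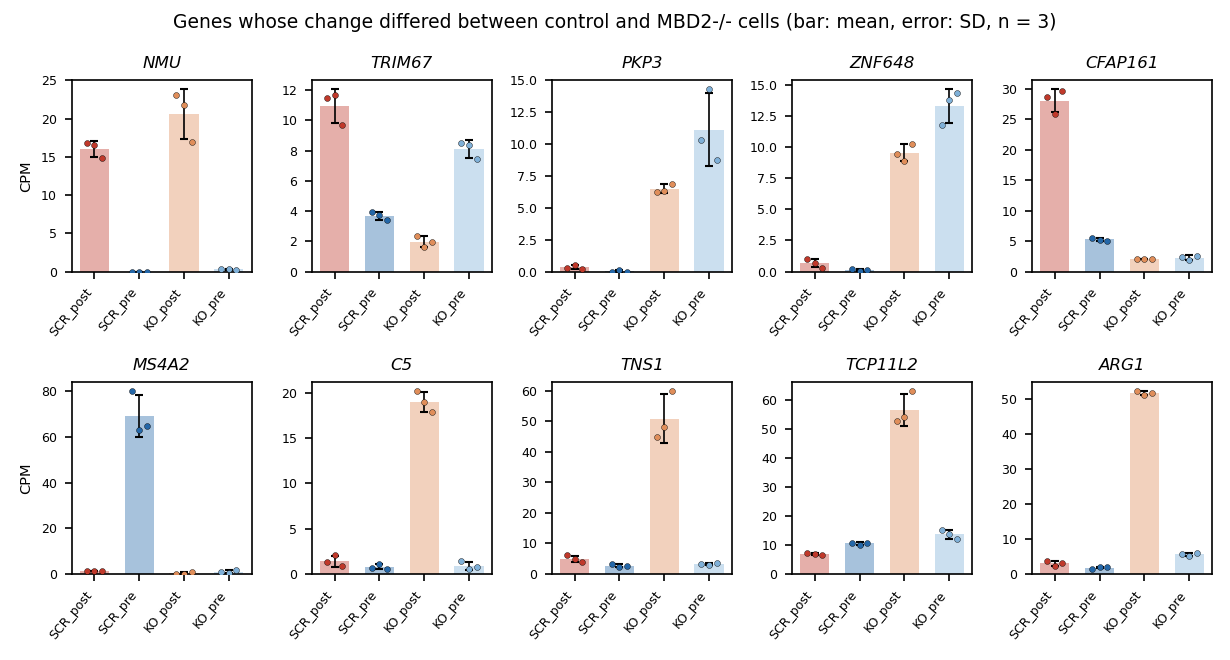
CPM in each library (points) of the 10 genes with the largest called differences between the control and the MBD2-/- course, with the mean (bar) and SD (error bar) of 3 libraries for SCR_post, SCR_pre, KO_post and KO_pre. TRIM67 and CFAP161 are highest in SCR_post, MS4A2 is high in SCR_pre alone, and C5, TNS1, TCP11L2 and ARG1 are highest in KO_post.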

How the data were processed

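RNA was sequenced in 12 libraries, of which the 6 of control cells are described. The deposited values are unnormalized counts, which the authors made from read pairs over exons with featureCounts 1.4.6-p4 on GENCODE release 22 of hg38 with no strand option, per the file headers. Trimmomatic, FastQC, Subread 1.6.2, edgeR 3.18.1 and another featureCounts version, 1.2.6, appear in the submitters' processing notes. Per the labels' protocols, the kit kept strand and removed ribosomal RNA and globin mRNA. Symbols came by identifier from GENCODE release 29, which named 56753 of 60483 genes.

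Counts were tested in edgeR 4.0.16 (R 4.3.3): filterByExpr with the 4 groups kept 17175 genes, TMM factors scaled the libraries, and glmQLFit with a group-means model over all 12 libraries (common biological coefficient of variation 0.089) gave two-sided quasi-likelihood tests, called where p, adjusted by Benjamini-Hochberg over the tested genes, was under 0.05. The standard error is the size of the log2 fold change over the square root of F. CPM are counts per 1000000 of TMM-scaled library size, computed from the deposited counts. A fold against 0 counts uses a floor of 3 counts over the group. The 95% interval beside it is an exact binomial one and covers counting error only. Shares of counts were compared by exact two-sided permutation. Of the 12 libraries, totals ran from 7667997 to 14047498 counts, which limits the precision of genes with few counts. The fit was also run on simulated counts, and the outcome of that run is not reported here. Alternatives were DESeq2 1.42.0, its size factors, library sizes only, no count filter, a replicate block, the 6 control libraries alone, and each library left out.

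Members and the 40 gene lists were chosen with earlier results of these data known. Named were up to 12 protein-coding genes a direction with the largest change (mean log2 CPM of at least 2, called, no overlap), up to 5 members a list with the smallest adjusted p, 22 anchor genes, up to 5 genes a direction for the difference between courses and up to 4 long noncoding RNAs a direction. The level for naming was a mean over all 12 libraries, MBD2-/- libraries included. Other members and families named (metallothioneins, zinc transporters, tRNA charging enzymes, mitochondrial ribosomal proteins, chaperonin subunits) were chosen after their values were seen. Promoters came from a RefSeq table of GRCh38.p14, which held 9601 of the 11652 tested protein-coding genes. A few genes that the naming rule or the lists hold are not reported here.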

Additional observations from a re-analysis of the deposited data

Results flagged for a closer look

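For 10 genes the change of the control course differed from that of the MBD2-/- course by the test of the difference itself, and they had the largest differences a direction among called protein-coding genes. Differences are control change minus MBD2-/- change, log2.

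On the side where the control change was the more positive, NMU differed by 4.29 ± 1.12 (adjusted p = 0.0194), with 548 counts in SCR_post against 0 in SCR_pre libraries and 520 in KO_post against 10 in KO_pre libraries. Since SCR_pre held 0 counts, this fitted difference depends on the prior count, and without SCR_pre replicate 2 it was not called (adjusted p = 0.0633). TRIM67 differed by 3.61, rising by 1.57 in control cells and falling by 2.04 in MBD2-/- cells. ZNF648 differed by 3.02 ± 0.58 (adjusted p = 0.00245): it held 24 counts in SCR_post against 4 in SCR_pre libraries and measured 8.93 to 10.3 CPM in KO_post against 11.8 to 14.4 CPM in KO_pre libraries. PKP3 differed by 3.22 ± 0.90 (adjusted p = 0.0257) on 12 counts in SCR_post against 2 in SCR_pre libraries, and the call was lost without SCR_post replicate 2, SCR_pre replicate 1 or SCR_pre replicate 3. CFAP161 differed by 2.58.

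On the other side, MS4A2 differed by -4.08 ± 1.04 (adjusted p = 0.0151): it fell by 5.83 in control cells and by 1.75 in MBD2-/- cells, where it held 7 counts in KO_post against 35 in KO_pre libraries. Without KO_post replicate 3 the difference was -2.83 (adjusted p = 0.291). C5, complement component 5, differed by -3.52 ± 0.52 (adjusted p = 2.74e-04), with a log2 fold change of 0.85 in control cells that was not called and 4.37 in MBD2-/- cells. Without 1 library the control value of C5 ran from 0.44 to 1.23, and it was called without SCR_post replicate 3 (adjusted p = 0.0313) or SCR_pre replicate 2 (adjusted p = 0.0484). TNS1 differed by -3.04 (0.93 in control and 3.96 in MBD2-/- cells), TCP11L2 by -2.67 (-0.62 and 2.05) and ARG1 by -2.49 (0.73 and 3.21).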

How the results depend on the processing

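The counts of genes higher and lower were 3681 and 3843 with DESeq2 size factors, 3229 and 3513 with DESeq2, 3178 and 4277 with library sizes only, 3621 and 3946 with no filter, and 3778 and 3971 with the 6 control libraries alone. Leaving out 1 library gave 3002 to 3888 higher and 3265 to 4026 lower. With a replicate block the counts were 3978 and 4052, and 1384 and 1344 for the difference between courses; the block lost no call of a named gene and added those of TAGLN, FKBP5 and TFRC. The replicate numbers were not shown to pair the samples: correlations of deviations were 0.0149, 0.169 and 0.209, and SCR_pre replicate 1 correlated best with SCR_post replicate 2 (0.114). Library sizes only gave 2146 and 644 genes for the difference between courses (76.9% higher, against 51.5%), with the median difference moved to 0.15. Leaving out 1 library moved the difference in globin share between -0.226 and 0.019 percentage points, and the log2 fold change of HBA2 between -1.45 and 0.18, of HBA1 between -1.32 and 0.32, of HBB between -1.19 and 0.36 and of RAG1 between -0.03 and 0.27. The upper values of the globins came without SCR_pre replicate 1, the lower of RAG1 without SCR_pre replicate 2, and EPCAM turned to -0.00 with library sizes only. Of the 237 named genes, 220 kept direction and call under every alternative; FCGR3A, RAG2, FN1, MYB, PKP3 and ARG1 lost the call under at least 1. Of 80 list counts, 65 stayed within 1.5 times, and the rest include globins called lower (0, and 3 with no filter) and the histone, mitosis and ribosome counts given with those genes. The cause of these shifts was not tested. Genes with few counts have wide errors, and globin levels are limited by removal in the kit.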

Other observations

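The subunits of the chaperonin CCT, which folds actin and tubulin, fell in 8 of 8 cases, by 0.23 (CCT2) to 0.60 (TCP1) on the log2 scale. Mitochondrial ribosomal proteins fell in 40 of 78 tested cases and rose in 2 (median -0.21), led by MRPL16, with 83.3, 91.9 and 88.3 CPM in SCR_post libraries, against 209, 207 and 224 CPM in SCR_pre libraries (log2 fold change -1.28 ± 0.06, adjusted p = 1.45e-10). Of the enzymes that charge tRNA in mitochondria, 6 of 17 tested fell and 1 rose (median -0.24), and IARS2 fell by 0.82. These families were chosen after their values were seen, and 22.3% of all tested genes fell.

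More genes had at least 1 count after differentiation: 31147, 32658 and 30533 in SCR_post libraries, against 27762, 29140 and 27582 in SCR_pre libraries of similar depth. The 43308 genes that did not pass the count filter took 0.367%, 0.358% and 0.359% of counts in SCR_post libraries, against 0.288%, 0.29% and 0.301% in SCR_pre libraries, without overlap (exact two-sided permutation p = 0.1, the smallest that 3 against 3 can give). Of the 7993 protein-coding genes among them, 4589 had more counts in SCR_post and 1221 more in SCR_pre libraries. ADAMTS14, an extracellular protease of collagen processing, passed the filter but not the level set for naming, which was taken over all 12 libraries. It measured 10.4, 12.1 and 7.79 CPM in SCR_post libraries, against 0 in each SCR_pre library. DNAH8, an axonemal dynein, measured 0.938, 0.291 and 0.21 CPM in SCR_post libraries, against 13.6, 11.2 and 11.1 CPM in SCR_pre libraries (log2 fold change -4.63 ± 0.29, adjusted p = 1.56e-09).

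Of 27 tested genes annotated as miRNA, 9 rose (33.3%, beside 21.5% of all tested genes) and 0 fell (beside 22.3%), and most other noncoding types of low counts leaned the same way. The precursor MIR3189, known to lie in an intron of GDF15, held 91 counts in SCR_post against 11 in SCR_pre libraries, and MIR425 held 62 against 13. Total RNA libraries do not separate these precursors from their host transcripts. Genes with so few SCR_pre counts pass the filter on low counts only through libraries where they are high. The direction of MIR3189 and MIR425 is therefore a description, and the part of that filter in the counts by type was not tested.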
